A study of Homo sapiens with 12 samples.

Results

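Reporter mRNAs whose last codon before a premature stop codon codes for proline were followed in human HEK293T cells, a kidney-derived line that is easy to engineer. Nonsense-mediated mRNA decay (NMD) destroys mRNAs that stop translation too soon. A premature stop codon is recognised most strongly when an exon junction complex (EJC), a set of proteins left at a splice site, remains on the mRNA downstream of it. The reporters are named for whether their decay is independent of, or enhanced by, such a complex. SMG1 is the kinase that phosphorylates UPF1 and so commits an mRNA to this decay. The 4 groups of libraries were SMG1i with the EJC-independent reporter, DMSO with the EJC-independent reporter, SMG1i with the EJC-enhanced reporter and DMSO with the EJC-enhanced reporter. SMG1i, an inhibitor of NMD, was given at 0.5 µM and DMSO is its vehicle, both for 24 hours. Each group has 3 libraries of total RNA, which makes 12 libraries. All cells were otherwise wild type and carried a library of reporters in 1 place of the genome, reached by Cre-Lox recombination, with no coordinates given in the sources used here. Whether the 3 libraries of a group come from separate cultures is not stated, and 1 cell line was used.

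The randomized window has 10 bases. Bases 1 to 3 are the penultimate codon, bases 4 to 6 the last codon, bases 7 to 9 a stop codon or TGG, and base 10 follows the stop codon. Members are the windows with a stop codon at bases 7 to 9, no stop codon in the penultimate or last codon, and CCA, CCC, CCG or CCT as last codon, which makes 2928 possible windows per reporter. The EJC-independent table lists 2688 of them (91.8%) among 29088 windows of the same build with any last amino acid and 41955 windows in all. The EJC-enhanced table lists 2837 (96.9%) among 34599 and 51306. At a mean normalised count of 10 or more, 2686 and all 2837 were kept. The same contexts with TGG, a tryptophan codon on which translation continues, served as controls without NMD, and 919 and 972 of 976 possible ones were listed. The rule for members reads the sequence alone.

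When a ribosome reaches a stop codon, the tRNA in its P site carries the last amino acid of the chain, and the release factor eRF1 has to cut the chain from that tRNA. The title of the series names the rate of this cut, peptidyl-tRNA hydrolysis, as a factor in NMD. Proline, whose side chain closes a ring on the backbone nitrogen, is a slow partner in peptide bond formation. Runs of prolines can stall ribosomes, and the factor eIF5A relieves such stalls and also promotes termination. The base after the stop codon touches the termination complex too, and UGA, UAG and UAA differ in how well they end translation.

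The windows below show how members and controls are built, in the context in which the penultimate codon is CCC and base 10 is C. This context was chosen for its abundance: the lowest mean count among its windows in both reporters was higher than in any other context. Capitals mark the proline codon and the stop codon or TGG after it. The letters are those of the deposited tables, written 5′ to 3′ as DNA.

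CCA before TGA: cccCCATGAc

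CCC before TGA: cccCCCTGAc

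CCG before TGA: cccCCGTGAc

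CCT before TGA: cccCCTTGAc

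CCA before TGG: cccCCATGGc

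CCC before TGG: cccCCCTGGc

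CCG before TGG: cccCCGTGGc

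CCT before TGG: cccCCTTGGc

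The response of a window is the log2 ratio of its RNA in SMG1i cells to that in DMSO cells. It is the deposited log2 fold change with its sign reversed, since the tables do not name the numerator and stop codon windows are negative as deposited. If the numerator were SMG1i, every direction against DMSO would turn. The tables give 1 comparison per window and no value per library, so standard deviations (SD), standard errors (SE) and intervals below run over windows, which are sequences in the same libraries and not replicates. Depth per library is unknown. The 2 tables were normalised apart, so levels set beside each other across reporters rest on each table's own scale.

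In the authors' deposited table (EJC-independent reporter), the windows ending in TGA shown above had responses of 1.93 ± 0.0596 (CCA), 1.64 ± 0.0358 (CCC), 2.02 ± 0.0784 (CCG) and 1.89 ± 0.0457 (CCT), each with its deposited standard error. As given in the authors' deposited table of the same reporter, the TGG windows had 0.20 ± 0.0470, 0.59 ± 0.0377, 0.16 ± 0.0401 and 0.15 ± 0.0375 in the same order. All 4 stop windows lay above all 4 TGG windows, and the CCC pair was closest together, with the lowest stop window and the highest TGG window. These TGG windows are not typical controls. The authors' deposited table calls all 4 higher in SMG1i cells in this reporter, where 6.53% of all proline TGG windows were called higher and their mean was -0.01. In the authors' deposited table (EJC-enhanced reporter), the TGA windows had 2.35 ± 0.321, 2.04 ± 0.287, 2.23 ± 0.246 and 2.18 ± 0.320, and the TGG windows 0.20 ± 0.256, 0.50 ± 0.246, 0.12 ± 0.236 and 0.17 ± 0.235. The order of the CCC windows was the same there, with standard errors several times wider.

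Nearly all proline windows had more RNA in SMG1i than in DMSO cells. By the authors' deposited table, at an adjusted p under 0.05, 2532 of 2684 EJC-independent proline windows with a p-value (94.3%) were higher in SMG1i cells and 0 were lower, where 84.9% of all stop codon windows were higher and 0.0104% lower. By the authors' deposited table (EJC-enhanced reporter), 2697 of 2827 (95.4%) were higher and 0 lower, against 86.1% and 0.00291% of all stop codon windows. The mean response was 1.77 in the EJC-independent reporter, a 3.41-fold difference (SD 0.409 over 2686 windows), and 2.28 in the EJC-enhanced reporter, a 4.85-fold difference (SD 0.539 over 2837 windows). Proline windows before TGG averaged -0.01 (SD 0.355 over 919 windows) and 0.04 (SD 0.389 over 972 windows), close to no difference between treatments.

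The larger share of calls went with a larger count. Proline windows had a median mean normalised count of 711, against 221 for other stop codon windows, in the EJC-independent table, and 398 against 131 in the EJC-enhanced table. Proline had the highest median count of the 20 amino acids in both. The median deposited standard error was 0.193 for proline and 0.352 for other windows in the first table, and 0.410 and 0.577 in the second. Within bands of mean count the shares by the authors' deposited table were closer: from 10 to 100 counts 61.1% of proline windows and 53.1% of the others were called in the EJC-independent reporter, from 100 to 300 counts 96.5% and 94.7%, and above 1000 counts 100% of both. As given in the authors' deposited table (EJC-enhanced reporter), the shares were 76.4% and 69.8% from 10 to 100 counts, and 95.6% and 94.1% from 100 to 300. The part of depth in the remaining gap was not tested.

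Each stop window was also paired with the TGG window that has the same random bases and the same base 10. In the EJC-independent reporter the stop window exceeded its control by 1.78 on average over 2578 proline pairs (SD 0.511), a 3.42-fold difference, and 99.3% of the pairs were above 0. Pairs with another last amino acid differed by 1.72 (SD 0.778 over 21497 pairs). In the EJC-enhanced reporter the difference was 2.23 over 2832 proline pairs (SD 0.649), a 4.70-fold difference with 99.5% of pairs above 0, and 2.26 over 29827 other pairs (SD 0.944). Proline pairs thus averaged above the other pairs in the EJC-independent reporter and below them in the EJC-enhanced reporter.

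Proline was not called as raising or lowering the response in either reporter. A linear model over contexts of 6 random bases, with penultimate codon, stop codon and base 10 taken into account, put proline at 0.04 above the other amino acids in the EJC-independent reporter (95% interval -0.01 to 0.09, Benjamini-Hochberg adjusted p = 0.138), the fifth highest of 20, where 55% of the 20 amino acids were called. For the EJC-enhanced reporter the effect was 0.00 (-0.04 to 0.05, adjusted p = 0.980 by the same model), the one at rank 10, where 0% were called, with 3 of 20 at an unadjusted p under 0.05. Both intervals hold 0, and a missed threshold does not show that proline acts like the other amino acids. Among EJC-independent windows the call depended on the model: weighting contexts by their precision gave 0.06 (adjusted p = 1.17e-10 by the weighted model), keeping windows of 100 or more counts gave 0.05 (adjusted p = 0.0173 by the model), each of which called 75% of the 20 amino acids, and a term for G or C bases, of which every proline codon has at least 2, gave -0.07 (adjusted p = 0.00901 by the model, which also called 75%). Over the settings run, the adjusted p for this effect ranged from 1.17e-10 to 0.972. With codon means as units in place of contexts, the model called 10% of the 20 amino acids in this reporter, against the 55% above. With the EJC-enhanced reporter, weighting gave -0.03 (adjusted p = 0.0254 by the weighted model, which called 25% of amino acids), and the adjusted p ranged from 0.0254 to 0.980 over the settings run. The EJC-enhanced effect itself ran from -0.08, at 100 or more counts, to 0.01, so 0.00 depends on the windows kept. At 100 or more counts 0% of amino acids were called. The mean response there was 2.28 for proline windows and 2.33 for the others.

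The TGG controls gave the model's background. Proline before TGG was 0.02 above other amino acids in the EJC-independent reporter (-0.04 to 0.07, adjusted p = 0.717 by the linear model) and 0.02 above them in the EJC-enhanced reporter (-0.03 to 0.07, adjusted p = 0.750 by the linear model), where 5% of amino acids were called in each. After subtraction of the matched TGG windows, the proline effect was 0.04 (-0.03 to 0.11, adjusted p = 0.405 by the linear model, 50% of amino acids called) and -0.02 (-0.09 to 0.05, adjusted p = 0.899 by the linear model, 0% called, 1 of 20 at an unadjusted p under 0.05). A precision-weighted model put proline before TGG 0.05 above other amino acids in the EJC-independent reporter (adjusted p = 4.36e-08 by the weighted model, which called 10% of amino acids), beside 0.06 before stop codons. Over the settings run, this adjusted p ranged from 4.36e-08 to 0.760. After subtraction, the EJC-independent proline effect was called in no setting, with adjusted p from 0.227 to 0.994 by the linear models. Among EJC-enhanced windows the weighted effect after subtraction was -0.05 (adjusted p = 0.0119 by the weighted model, which called 10% of amino acids, and from there up to 0.899 over the settings run).

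Set against single amino acids, proline was estimated above 15 of 19 in the EJC-independent reporter, not all of them called. In the EJC-enhanced reporter proline was called different from none of them. It was called different from 11 of 19 amino acids in the EJC-independent reporter, where 70% of all 190 pairs were called. These calls take contexts as units, although contexts share codons and libraries, and the pairs were not run with codon means. For the 20 single amino acids, codon means as units lowered the calls from 55% to 10% in this reporter. It was lower than glycine, at -0.39 (interval -0.45 to -0.33, adjusted p = 1.73e-37 by the linear model) and lower than threonine, at -0.32 (-0.38 to -0.26, adjusted p = 1.97e-25 by the linear model). It was higher than 9 amino acids: tyrosine, phenylalanine, methionine, histidine, cysteine, glutamine, asparagine, leucine and isoleucine. The gap ran up to 0.35 over tyrosine (0.28 to 0.42, adjusted p = 1.37e-20 by the linear model) and down to 0.08 over isoleucine (0.02 to 0.14, adjusted p = 0.0176 by the linear model). No call was made against alanine (0.05, interval -0.01 to 0.10), serine (-0.03, -0.08 to 0.03), arginine, valine, lysine, tryptophan, aspartate or glutamate. Under precision weighting, which called 81.1% of all pairs, the number of amino acids above proline was 4 in place of 2.

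In the EJC-enhanced reporter 0 of 19 pairs with proline were called by the linear model, where 1.05% of all pairs were, and 1 of the 19 had an unadjusted p under 0.05. Proline minus alanine was -0.01 (-0.07 to 0.05), proline minus threonine -0.05 (-0.11 to 0.01) and proline minus serine 0.03 (-0.03 to 0.09). The intervals hold 0 and differences of either sign. At a minimum count of 50 the linear model, which then called 1.05% of all pairs, put 1 amino acid above proline: proline minus lysine was -0.18 (adjusted p = 0.0347 by the linear model), against 0.09 in the model above (adjusted p = 0.209 by the linear model). Under precision weighting, which called 12.6% of all pairs, 4 amino acids were above proline. Lysine and its values are named here because they were seen to change sign.

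Proline codons share C as first and second base, so codons that share one of these bases are the closest in sequence. With C in the middle, the mean EJC-independent response was 1.77 for proline codons (SD 0.409), 2.08 for the 4 threonine codons, ACN (SD 0.659), 1.81 for the 4 serine codons TCN (SD 0.506) and 1.70 for the 4 alanine codons, GCN (SD 0.591). Proline thus lay between alanine and serine and below threonine, in the same order as in the model. With C first, arginine CGN codons averaged 1.78, leucine CTN codons 1.67, and CAN codons, for histidine and glutamine, 1.50. For the EJC-enhanced reporter the 4 groups with C in the middle lay within a narrow band, 2.28 for proline, 2.33 for threonine, 2.27 for serine and 2.30 for alanine.

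The mean responses of the 4 synonymous proline codons lay close together. In the EJC-independent reporter CCG averaged 1.82 ± 0.0189 (SE over 638 windows), CCA 1.77 ± 0.0183 (628), CCC 1.76 ± 0.0105 (721) and CCT 1.74 ± 0.0152 (699). With the EJC-enhanced reporter CCG averaged 2.29 ± 0.0233 (692), CCT 2.28 ± 0.0195 (724), CCC 2.28 ± 0.0141 (732) and CCA 2.26 ± 0.0232 (689). CCG had the highest mean in both. By the linear model 0 of 4 codons were called in either reporter, where 42.6% of the 61 sense codons were called in the EJC-independent and 4.92% in the EJC-enhanced reporter, and none of the 4 had an unadjusted p under 0.05. The EJC-independent effects ran from 0.01 (CCT) to 0.07 (CCG, interval -0.02 to 0.17), and the EJC-enhanced ones from -0.02 (CCA) to 0.02 (CCG, interval -0.06 to 0.11). Of the 6 pairs of synonymous proline codons, 0 were called in either reporter by the linear model, against 9.2% and 0% of 87 synonymous pairs, and 0 had an unadjusted p under 0.05. Their differences ran from -0.05 to 0.06 and from -0.04 to 0.02. Under precision weighting 3 of the 4 codons and 4 of the 6 pairs were called in the EJC-independent reporter, where that model called 59% of all codons and 27.6% of all synonymous pairs. It called 0 of either in the EJC-enhanced reporter, where it called 1.64% and 2.3%.

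The codons differed more in abundance than in response. The median mean count of EJC-independent stop windows was 1560 for CCC, 826 for CCT, 425 for CCA and 364 for CCG, and of EJC-enhanced ones 822, 476, 257 and 251. The spread of the EJC-independent responses followed the inverse order, at an SD of 0.283 for CCC, 0.402 for CCT, 0.460 for CCA and 0.477 for CCG. By the authors' deposited table, 98.6% of CCC windows, 95.3% of CCT windows, 91.7% of CCA windows and 91.1% of CCG windows of the EJC-independent reporter were higher in SMG1i cells, beside 84.9% of all stop codon windows. In the controls, by the authors' deposited table, 60 of 919 EJC-independent proline TGG windows (6.53%) were higher in SMG1i cells, where 4.09% of all TGG windows were, and 4.79% were lower, where 4.03% were. Of these 60 calls in the authors' deposited table, 35 were among the 244 CCC windows (14.3%). By the authors' deposited table (EJC-enhanced reporter), 16 of 972 (1.65%) were higher, against 2.76% of all TGG windows, and 0.926% lower, against 1.38%.

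TGA gave the highest mean response of the stop codons after proline in the EJC-independent reporter. Proline windows averaged 1.89 with TGA (SD 0.388 over 891 windows), 1.75 with TAA (SD 0.398 over 901) and 1.68 with TAG (SD 0.412 over 894). Within the same random bases and base 10, TGA exceeded TAG by 0.20 ± 0.0181 (SE over 835 pairs) and TAA by 0.14 ± 0.0170 (849 pairs), and TAG minus TAA was -0.06 ± 0.0177 (850 pairs). Each of the 4 codons had this order, TGA above TAA above TAG. TGA ran from 1.85 with CCT to 1.98 with CCG, TAA from 1.73 with CCC to 1.77 with CCG, and TAG from 1.64 with CCT to 1.70 with CCG. Windows with other last amino acids had nearly the same gaps, 0.20 ± 0.00954 for TGA minus TAG (6673 pairs) and 0.15 ± 0.00917 for TGA minus TAA (6874 pairs).

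Among EJC-enhanced windows the stop codons lay close together after proline, at 2.30 with TAA (SD 0.534 over 947 windows), 2.28 with TGA (SD 0.536 over 946) and 2.25 with TAG (SD 0.546 over 944). The matched gaps were 0.02 ± 0.0238 for TGA minus TAG and -0.02 ± 0.0241 for TGA minus TAA, each about the size of its standard error. TAG minus TAA was larger, at -0.04 ± 0.0244 over 922 pairs. Windows with other last amino acids gave -0.04 ± 0.0107 for this gap (9189 pairs). By proline codon it was -0.14 ± 0.0549 with CCG (219 pairs), -0.05 ± 0.0564 with CCA, -0.00142 ± 0.0345 with CCC and 0.01 ± 0.0486 with CCT. A linear model of whether proline alters the contrast of a stop codon with the other stop codons called 0 of 3 in either reporter, where 0% of 60 pairs of amino acid and stop codon were called, with 7 and 3 of the 60 at an unadjusted p under 0.05 and none of them with proline. The proline terms in the EJC-independent reporter were 0.02 (TGA, interval -0.05 to 0.08), 0.02 (TAA, -0.05 to 0.08) and -0.04 (TAG, -0.10 to 0.03). In the EJC-enhanced reporter they were -0.02 (TGA, -0.10 to 0.06), 0.01 (TAA, -0.07 to 0.09) and 0.01 (TAG, -0.07 to 0.10).

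The base after the stop codon made a small difference over all proline windows together. Among EJC-independent windows the mean response was 1.80 with A, 1.77 with T, 1.76 with G and 1.75 with C. For the EJC-enhanced reporter it was 2.34 with A, 2.27 with T, 2.26 with C and 2.24 with G. A had the highest mean in both. Within matched EJC-independent windows A minus G was 0.01 ± 0.0258 and A minus T 0.03 ± 0.0216, and in EJC-enhanced windows 0.09 ± 0.0311 and 0.06 ± 0.0280. A minus C was 0.04 ± 0.0195 in the EJC-independent reporter (623 pairs), against 0.11 ± 0.0109 for other last amino acids (4955 pairs). With the EJC-enhanced reporter it was 0.08 ± 0.0276 (685 pairs), against 0.02 ± 0.0126 (6627 pairs). A linear model of proline against other amino acids in these contrasts called 0 of 4 bases in either reporter, where 1.25% and 0% of 80 pairs of amino acid and base were called, and none of the proline terms had an unadjusted p under 0.05. The terms were -0.04 with A, 0.03 with C, 0.02 with G and 0.00 with T in the EJC-independent reporter, and 0.06, -0.05, 0.01 and -0.02 in the EJC-enhanced reporter, with the widest intervals from -0.11 to 0.09 and from -0.12 to 0.15.

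The 12 combinations of stop codon and base 10 followed the stop codon in the EJC-independent reporter. TGA gave 1.92 ± 0.0231 with T, 1.92 ± 0.0312 with G, 1.90 ± 0.0300 with A and 1.83 ± 0.0193 with C, all above every TAA and TAG combination. TAA gave 1.80 ± 0.0314 with A, 1.75 ± 0.0315 with G, 1.73 ± 0.0249 with T and 1.72 ± 0.0180 with C. TAG gave 1.70 ± 0.0297 with A, 1.70 ± 0.0187 with C, 1.67 ± 0.0297 with T and 1.63 ± 0.0315 with G. The gap between the lowest TGA and the highest TAA combination was smaller than the standard error of the TAA mean. Among EJC-enhanced windows the 12 means ran from 2.20 ± 0.0279 (TAG followed by C) to 2.36 ± 0.0444 (TAA followed by A), and for each stop codon A was the highest.

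Proline-proline, a pair known for slow elongation, gave the highest mean response of the 20 penultimate amino acids before proline in the EJC-independent reporter. Its 192 windows averaged 1.99 ± 0.0173 (SE), a 3.96-fold difference between SMG1i and DMSO cells. Windows with proline in last place alone averaged 1.75 ± 0.00831 (2494 windows), those with proline in penultimate place alone 1.80 ± 0.00979 (2513), and those with proline in neither place 1.71 ± 0.00419 (23765). By the authors' deposited table all 192 proline-proline windows were higher in SMG1i cells in both reporters, where 84.9% of all EJC-independent and 86.1% of all EJC-enhanced stop codon windows were. Of all stop codon windows with 1000 or more counts, the authors' deposited table calls 99.8% or more in every group compared, proline or not. Against the matched TGG windows the response was 1.94 ± 0.0228 over 192 pairs for proline-proline and 1.76 ± 0.0107 over 2386 pairs for other amino acids before proline. In the EJC-enhanced reporter proline-proline stood eleventh of 20, at 2.28 ± 0.0215, level with proline in last place alone at 2.28 ± 0.0107 (2645 windows) and below proline in penultimate place alone at 2.34 ± 0.0106 (2657).

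The proline-proline mean was not called beyond what its codons gave singly. In a linear model of deviation from the sum of the penultimate and last codon effects, proline-proline stood at 0.14 in the EJC-independent reporter (interval -0.03 to 0.31, adjusted p = 0.743 by the linear model) and at -0.07 in the EJC-enhanced reporter (-0.26 to 0.11, adjusted p = 0.985 by the linear model). Precision weighting moved the EJC-independent value to 0.10 (adjusted p = 7.40e-08 by the weighted model), and over the settings run the value ran from 0.08 to 0.14 and the adjusted p from there up to 0.974. Proline-proline windows had a median mean count of 2872 in the EJC-independent table, against 647 for proline in last place alone, and 1577 against 372 in the EJC-enhanced table. The part of abundance in these means was not tested.

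The 16 codon pairs for proline-proline ran from 1.77 to 2.13 in the EJC-independent reporter. The highest were CCA CCG at 2.13 ± 0.100 (12 windows) and CCA CCA at 2.11 ± 0.132, and the lowest were CCC CCC at 1.77 ± 0.0490 and CCC CCT at 1.88 ± 0.0542. For the EJC-enhanced reporter the highest were CCG CCG at 2.39 ± 0.0803 and CCT CCG at 2.37 ± 0.102, and the lowest again CCC CCC at 2.16 ± 0.0406 and CCC CCT at 2.18 ± 0.0536. The run of 6 C bases was thus the lowest of the 16 in both reporters. It was also the highest of the 16 before TGG, at 0.34 in the EJC-independent and 0.31 in the EJC-enhanced reporter over 4 windows each. By the authors' deposited table, all of these TGG windows were higher in SMG1i cells in the EJC-independent reporter and none of the 4 were called in the EJC-enhanced reporter, where 4.09% and 2.76% of all TGG windows were higher. Their median mean counts, 28261 and 23124, were the highest of the 16 pairs before TGG in both tables. The part of abundance in these values was not tested.

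TGA also led after proline-proline. In matched EJC-independent windows TGA exceeded TAG by 0.30 ± 0.0356 (64 pairs, 90.6% above 0) and TAA by 0.25 ± 0.0339 (64 pairs, 87.5% above 0), where all proline windows together gave 0.20 and 0.14. Whether proline-proline enlarges the gap was not tested. With the EJC-enhanced reporter the same gaps were 0.09 ± 0.0482 and 0.00 ± 0.0536. At base 10, A minus C after proline-proline was 0.17 ± 0.0394 in the EJC-independent reporter (48 pairs), where all proline windows gave 0.04. In the EJC-enhanced reporter it was 0.07 ± 0.0601, where all proline windows gave 0.08. Whether proline-proline alters this contrast was not tested.

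The other penultimate amino acids lay close together before proline. In the EJC-independent reporter the highest after proline-proline were glycine (1.87 ± 0.0405 over 160 windows) and glutamate (1.84 ± 0.0801 over 67), and the lowest histidine (1.66 ± 0.0247 over 95), arginine (1.66 ± 0.0244 over 253) and tyrosine (1.69 ± 0.0393 over 94). Among EJC-enhanced windows the highest were glutamate (2.44 ± 0.0970 over 77), tryptophan (2.38 ± 0.103 over 44) and isoleucine (2.36 ± 0.0510 over 138), and the lowest phenylalanine (2.17 ± 0.0294 over 96), aspartate (2.20 ± 0.0581 over 96) and leucine (2.24 ± 0.0263 over 288). Glutamate stood among the highest in both, on windows with a median mean count of 176 and 125. By penultimate codon the means ran from 1.56 to 2.05 in the EJC-independent reporter (SD 0.100 over 61 codons) and from 2.06 to 2.63 in the EJC-enhanced reporter (SD 0.0967).

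Before other last amino acids the same penultimate amino acids did not always take the same place. Penultimate tyrosine averaged 1.69 before proline and 1.82 before other amino acids in the EJC-independent reporter, isoleucine 1.73 and 1.82, and valine 1.78 and 1.87. These were the only penultimate amino acids with a lower mean before proline. All others averaged higher before proline, such as arginine at 1.66 and 1.56 and glutamine at 1.75 and 1.59. The linear model called 0 of the 20 dipeptides that end in proline in either reporter, where 1.5% of 400 dipeptides were called in each. Isoleucine-proline had an unadjusted p under 0.05 in the EJC-independent reporter, at -0.23 (interval -0.43 to -0.04, adjusted p = 0.261 by the linear model), and none had one in the EJC-enhanced reporter. Precision weighting called 6.5% of all 400 dipeptides in the EJC-independent reporter, and 5 of the 20 with proline: isoleucine-proline at -0.13, tyrosine-proline at -0.16, valine-proline at -0.15, leucine-proline at -0.07 and proline-proline at 0.10.

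Proline differed from the other amino acids in how the reporters compared. Over 26171 windows listed in both tables (3467 contexts), the EJC-independent minus EJC-enhanced response was 0.11 higher for proline than for other amino acids (interval 0.03 to 0.19, adjusted p = 0.0157 by the linear model), where 65% of the 20 amino acids were called. A shift common to all windows of a table cancels in this contrast. In the shared windows alone the proline effect was 0.04 in the EJC-independent and -0.07 in the EJC-enhanced reporter, whereas over all windows of each table it was 0.04 and 0.00, so the size of the difference holds for the windows that both tables list. Over the alternatives run, all within shared windows, the difference ranged from 0.11 to 0.21 and its adjusted p from 1.03e-14 to 0.0199. Codon means as units were not among these alternatives. Since 13 of the 20 amino acids were called, a call here does not set proline apart.

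Single windows did not keep their order from one reporter to the other. Among 2227 proline windows with a mean count of 100 or more in both tables, Pearson's r was -0.01 and Spearman's rho 0.00, given as a description across windows that share libraries. The EJC-enhanced response was above the EJC-independent one in 1912 of the 2227 windows (85.9%). After allowance for the deposited standard errors, the spread between proline windows was 0.173 in the EJC-independent reporter, the fourth lowest of 20 amino acids, and 0.221 in the EJC-enhanced reporter, the lowest. The root mean square of the deposited standard errors was 0.371 beside an SD of 0.409, and 0.491 beside 0.539. For windows of 100 or more counts within a reporter it was 0.238 beside 0.307, and 0.437 beside 0.472. The part of measurement error in the low correlation was not tested.

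The windows at the ends of the range differed in makeup in the EJC-independent reporter. Windows with a mean count of 100 or more were ranked by response, and 10% of them were taken from each end. Of the 233 EJC-independent windows at the top, 58.4% ended in TGA, 36.9% had CCG and 16.7% were proline-proline. Among the 233 at the bottom TGA made up 16.3%, TAG 46.8%, CCG 21.9% and proline-proline 0.429%. Over all 2337 such windows the shares were 32.8% TGA, 33.5% TAG, 21.6% CCG and 8.13% proline-proline. Among EJC-enhanced windows TGA made up 36.4% of the 250 at the top and 34.4% of the 250 at the bottom. CCC, the most abundant codon, made up 17.2% and 12.8% of these ends against 28.7% of all windows. CCG, the least abundant, made up more of both ends, 28.4% and 32% against 22.3% of all windows. So did CCA, at 27.2% and 32.8% against 22.4%.

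The single windows at either end are shown to let the ends of the range be seen, with a mean count of 100 or more in both tables. They were chosen by their response, so their values are a description. Capitals mark the proline codon and the stop codon.

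highest EJC-independent, rank 1: tcgCCGTAGg

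highest EJC-independent, rank 2: gacCCGTGAa

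highest EJC-independent, rank 3: ttaCCGTGAt

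highest EJC-independent, rank 4: gcaCCGTGAa

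lowest EJC-independent, rank 1: tacCCTTAGa

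lowest EJC-independent, rank 2: gggCCGTGAc

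lowest EJC-independent, rank 3: gtcCCATGAa

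lowest EJC-independent, rank 4: gaaCCCTAAa

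highest EJC-enhanced, rank 1: aagCCTTGAc

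highest EJC-enhanced, rank 2: aaaCCTTGAt

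highest EJC-enhanced, rank 3: ataCCTTAGg

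highest EJC-enhanced, rank 4: tgtCCATAGg

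lowest EJC-enhanced, rank 1: aatCCGTAGt

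lowest EJC-enhanced, rank 2: cagCCGTAAt

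lowest EJC-enhanced, rank 3: cagCCGTGAg

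lowest EJC-enhanced, rank 4: ggaCCGTGAt

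In the authors' deposited table (EJC-independent reporter), the 4 highest windows had responses of 4.21 ± 0.489, 2.99 ± 0.502, 2.93 ± 0.389 and 2.89 ± 0.475, each with its deposited standard error. All 4 had CCG and 3 of them ended in TGA. Their responses in the authors' deposited table (EJC-enhanced reporter) were 2.09 ± 0.362, 2.74 ± 0.363, 1.59 ± 0.409 and 2.66 ± 0.466. As given in the authors' deposited table (EJC-independent reporter), the 4 lowest had -0.27 ± 0.813, 0.26 ± 0.504, 0.51 ± 0.586 and 0.60 ± 0.543, none of them called there. In the authors' deposited table (EJC-enhanced reporter) the same 4 had 1.90 ± 0.388, 0.50 ± 0.709, 2.74 ± 0.633 and 2.81 ± 0.650. So gggCCGTGAc was low in both reporters, and the other 3 were low in one.

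As given in the authors' deposited table (EJC-enhanced reporter), the 4 highest windows had 4.82 ± 0.640, 4.52 ± 0.837, 4.31 ± 1.24 and 4.13 ± 0.629, and the third of them has no adjusted p there. In the authors' deposited table (EJC-independent reporter) these 4 had 1.92 ± 0.152, 1.20 ± 0.147, 1.76 ± 0.0843 and 1.64 ± 0.150, with the first above and the other 3 below the mean of proline windows. As given in the authors' deposited table (EJC-enhanced reporter) the 4 lowest had 0.10 ± 0.831, 0.12 ± 0.659, 0.20 ± 0.629 and 0.38 ± 1.62, and all 4 had CCG. In the authors' deposited table (EJC-independent reporter) they had 1.85 ± 0.450, 2.25 ± 0.260, 2.61 ± 0.580 and 2.24 ± 0.142, all above the mean of proline windows. The mean counts of these 16 windows in the table in which each was extreme ran from 103 to 393.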

How the data were processed

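Per the labels, randomized NMD reporters were sequenced as RNA from SMG1i and DMSO cells. For each reporter a single table, 1 row per window, was deposited by the authors. Per the file headers, the columns are the mean normalised count (a signal averaged over the libraries), the log2 fold change, its standard error, the Wald score, the p-value and its adjusted form. Per the submitters' processing notes DESeq and DESeq2 were used. Versions and read processing: not given in the sources used here. Recomputing the Benjamini-Hochberg adjustment returned the deposited adjusted p-values for all 41935 and 51099 rows with a p-value (within 1e-6). The tables hold no values per library, so no test of own between treatments was possible, and depth per library is unknown.

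From these values, windows without a stop codon in the random bases and at a mean count of at least 10 were kept. Python 3.11.15, numpy 2.4.6, pandas 2.3.3 and scipy 1.17.1 were used. Additive effects of stop codon and base 10, estimated within contexts of 6 random bases, were subtracted. The windows were then averaged per context, with every context weighted equally. Linear models with a pooled residual variance were fitted to all contexts, two-sided, and adjusted by Benjamini-Hochberg within each family and reporter at 0.05. They were also run on simulated data with set effects, in which contexts otherwise varied independently. Such data cannot show how the calls depend on contexts that share a codon. Named contexts are the 4 proline codons, 3 stop codons, 4 bases at position 10, alanine, threonine and serine, proline-proline with the 2 highest and 2 lowest codon pairs, the 3 highest and 3 lowest penultimate amino acids, and the 4 highest and 4 lowest windows per reporter with a mean count of 100 or more in both tables. Members, lists and rules were chosen with earlier results of these data known. Alternatives were a minimum count (none, 50, 100), medians, precision weights, a term for G or C bases, codons as units, shared windows and, for deposited calls, a threshold of 0.01. Codons as units were used only for the amino acid fits before stop codons, before TGG and after TGG subtraction.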

Additional observations from a re-analysis of the deposited data

Results flagged for a closer look

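The proline effect differed between the reporters, by a test of the difference itself. Proline stood 0.107 higher, relative to the other amino acids, in the EJC-independent than in the EJC-enhanced reporter (adjusted p = 0.0157 by the linear model over 3467 contexts in windows listed in both tables). Over all windows of each table the effects were 0.04 and 0.00, a smaller gap, which was not tested. Of the 20 amino acids, 13 were called in this contrast, which was not run with codon means as units.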

How the results depend on the processing

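No paired analysis was possible because the tables hold no values per library. For the same reason no replicate could be left out and no other normalisation (edgeR's TMM, DESeq2's size factors) was run. Precision in single windows is limited by their counts, and the intervals leave out variation between cultures. Of 113 recomputed main results, 96 kept direction and side of the threshold, or a count within 1.5 times. The proline effect in the EJC-enhanced reporter changed sign: -0.0551 at a minimum count of 50, -0.00964 with medians, -0.0291 with precision weights, -0.00249 with a G or C term and, in alternatives chosen after seeing the data, -0.0653 in windows of both tables and -0.0841 at 100 or more counts. In the EJC-independent reporter it was -0.0691 with the G or C term, 0.0592 with weights and, at 100 or more counts (chosen after seeing the data), 0.0516. Weights also called 3 codons, 4 synonymous pairs, 4 amino acids above proline and 5 dipeptides in the EJC-independent reporter. There they called 59% of codons, 27.6% of synonymous pairs, 81.1% of amino acid pairs and 6.5% of dipeptides. Proline before TGG was called there at 0.0473, where 10% of amino acids were. In the EJC-enhanced reporter weights called 4 amino acids above proline (12.6% of pairs called), against 1, lysine, at a minimum of 50 (1.05%). They also called a stop minus TGG effect of -0.0524 there, where 10% of amino acids were called. The cause was not tested.

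Over all proline contexts, 79 of 528 recomputed values of single contexts changed sign, and 1 of the 79 was called in either fit. That one was proline minus lysine in the EJC-enhanced reporter, at -0.177 with a minimum of 50. Contexts named in the text gave 31 of these 79, listed here. The rest in the EJC-enhanced reporter were proline minus lysine with weights (-0.0169), CCC with no minimum (0.00216), CCG and CCT at a minimum of 50 (-0.0167 and -0.0624) and with weights (-0.00404 and -0.0267), CCT with medians (-0.0110), proline minus serine at a minimum of 50 and with weights (-0.00554 and -0.000353), base T likewise (0.0229 and 0.00273), TAG with medians (-0.00109), and phenylalanine and tryptophan before proline at 100 or more counts (0.00684 and -0.0371). In the EJC-independent reporter these were TAA, TAG and TGA at a minimum of 50 (-0.00345, 0.0158 and -0.0124), TAA with medians and with weights (-0.00456 and -0.00743), bases G and T with medians (-0.00728 and 0.00387), proline minus aspartate with medians (0.00157), proline minus arginine with weights (-0.0222), histidine-proline with medians and at 100 or more counts (0.0209 and 0.000329), glutamate-proline at a minimum of 50, with weights, after TGG subtraction and at 100 or more counts (-0.0306, -0.0536, -0.0244 and -0.0624), and glycine-proline after TGG subtraction (-0.0350).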

Other observations

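The number of C bases in the penultimate codon went with abundance in proline windows, as it did in windows with other last amino acids. With 0, 1, 2 and 3 C bases the median mean count of EJC-independent proline windows was 307, 809, 2432 and 6624, and the mean response 1.76, 1.76, 1.81 and 1.90 (SE 0.0161, 0.0106, 0.0142 and 0.0267). The median counts before other last amino acids were 125, 215, 450 and 1382. Among EJC-enhanced windows the counts were 185, 476, 1270 and 3971 and the responses 2.30, 2.26, 2.27 and 2.22 (SE 0.0210, 0.0129, 0.0154 and 0.0291). The median counts before other last amino acids were 77.0, 136, 294 and 745. Before TGG, windows with 3 C bases and a proline codon had a response of 0.14 ± 0.0452 in the EJC-independent and 0.16 ± 0.0288 in the EJC-enhanced reporter (SE over 16 windows each). The 4 windows with CCC CCC averaged 0.34 and 0.31, and the other 12 averaged 0.07 ± 0.0368 and 0.11 ± 0.0169. With 3 C bases before another last amino acid, the TGG response was 0.01 ± 0.0155 over 226 windows and 0.04 ± 0.0160 over 228.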
